A study of Mus musculus with 18 samples.

Results

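Activator protein 1 (AP-1) is a family of dimeric basic leucine zipper (bZIP) transcription factors. A JUN protein (c-JUN, JUNB or JUND) pairs with a second JUN protein or with a FOS protein (c-FOS, FOSB, FRA1 or FRA2). It also pairs with a more distant bZIP protein such as an ATF. The dimer binds the TRE or the related CRE element. Growth factor receptors, among them those of the fibroblast growth factors, raise several of these genes within minutes through MAP kinases, SRF and its ETS cofactors, and some, such as Fosl1, stay high while the signal lasts. AP-1 proteins are well known in cells of the adipose lineage as regulators of proliferation and differentiation.

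The 9 genes described here are the FOS family (Fos; Fosb; Fosl1, which encodes FRA1; and Fosl2, which encodes FRA2), the JUN family (Jun, Junb and Jund), the ATF family member Atf3 and the small MAF gene Maff. They were taken by name from a table of 48023 mouse genes. The RNA came from brown preadipocytes, a line immortalized with SV40 T antigen from the stromal vascular fraction of brown fat, grown in serum-containing medium and treated with vehicle (Veh) or FGF6 for 4, 8 or 24 h. Each of the 6 groups had 3 libraries, 18 in all, and the labels do not say whether these were separate cultures, so the p-values below measure only the spread between these libraries. FGF6 is a secreted, paracrine fibroblast growth factor. As a single immortalized line carrying a viral oncoprotein, the cells are a model of undifferentiated brown fat precursors and not of brown fat tissue.

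Library totals lay between 24327816 and 33471980 counts. Of all genes, 15071 passed the filter on low counts, and all 9 AP-1 genes were among them. Expression is given as CPM, the counts scaled to the TMM-adjusted library total, and 3 counts corresponded to 0.0905 to 0.126 CPM. A gene was called when its adjusted p in edgeR's quasi-likelihood test (Benjamini-Hochberg over all genes tested) was under 0.05. One library stood apart. Replicate 3 of the 24 h vehicle group differed from its mates by 37.9 and 41.3 chi-square units per degree of freedom, while no other pair within a group exceeded 7.63, and 24 h results are therefore also given without it. All 7 markers of brown or stromal preadipocytes were present, with a summed level of 1164 to 1406 CPM in vehicle-treated cells. With FGF6 that sum was lower: it lay between 905 and 946 CPM at 4 h, between 727 and 798 CPM at 8 h and between 355 and 369 CPM at 24 h. Cd34 went the other way, from 10.5 to 14.4 CPM at 8 h (log2 fold change 0.46) and from 16.5 to 43 CPM at 24 h (1.38). Of the 7 markers, 1 was called higher and 6 lower at both times. Over all genes the shares were 32.4% and 38.4% at 8 h and 35.9% and 37.9% at 24 h. Of the markers of other cells, Myf5 (myoblasts) and Lep (adipocytes) had no count in any library. Ptprc (leukocytes) and Adgre1 (macrophages) had at most 2 counts and Pecam1 (endothelium) at most 7. Fabp4 (66.9 to 160.1 CPM), Cd68 (3.24 to 16.5 CPM) and Myog (0.364 to 4.36 CPM) were detected as group means. So were Myod1 (0.969 to 3.27 CPM), Cidec (0.113 to 4.32 CPM) and Csf1r (0.376 to 3.65 CPM). Of the endothelial genes, Cdh5 (0.0582 to 3.59 CPM) and Kdr (0.365 to 1.62 CPM) were detected as well, Cdh5 highest with FGF6 at 24 h. All 4 of these lists moved with treatment at 24 h without overlap. From vehicle to FGF6 the summed level went from between 156 and 178 to between 63.4 and 70.1 CPM for mature adipocytes, from between 6.39 and 7.92 to between 3.32 and 3.97 CPM for macrophages, from between 5.74 and 6.68 to between 1.6 and 2.13 CPM for myoblasts and from between 0.965 and 1.3 to between 3.71 and 5.65 CPM for endothelium. The sums of the last 3 lists never exceeded 18.4, 8.96 and 5.65 CPM. At 4 h the myoblast sum was already lower with FGF6 (3.92 to 4.65 against 7.68 to 8.96 CPM) and the macrophage sum higher (17.6 to 18.4 against 14.2 to 15.2 CPM). Within the macrophage list Cd68 was higher at 4 h (log2 fold change 0.58) and Csf1r lower (-1.38). The part of these shifts in the AP-1 values was not tested, and in bulk RNA fewer cells of a type and less RNA per cell cannot be told apart.

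The sequences around the start sites show which members carry, in their proximal promoter, exact consensus letters that AP-1, CREB, SRF or ETS factors are known to read. Windows from 250 bases before to 50 bases after the start site (RefSeq, GRCm38.p6) were held for 8 of the 9 genes, Fosl1 being the exception. They were searched on both strands for the TRE (TGANTCA), the CRE (TGACGTCA), the CArG box that SRF binds (CC, 6 of A or T, then GG), an ETS core (GGAAGT) and the TATA box (TATAAA). These motifs do not overlap one another in the windows shown. The 4 windows below are printed because their genes rose with FGF6, 3 of them holding a match and 1 holding none. Matches are in capitals, and each window is written 5' to 3' on the strand of its gene.
Fos, chr12:85473640-85473939, plus strand: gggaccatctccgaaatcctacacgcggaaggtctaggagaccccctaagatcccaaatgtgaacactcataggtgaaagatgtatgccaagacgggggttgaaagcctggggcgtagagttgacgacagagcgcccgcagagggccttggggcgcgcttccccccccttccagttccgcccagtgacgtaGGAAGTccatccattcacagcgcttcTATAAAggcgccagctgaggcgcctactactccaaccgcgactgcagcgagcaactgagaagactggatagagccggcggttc
Junb, chr8:84978699-84978998, minus strand: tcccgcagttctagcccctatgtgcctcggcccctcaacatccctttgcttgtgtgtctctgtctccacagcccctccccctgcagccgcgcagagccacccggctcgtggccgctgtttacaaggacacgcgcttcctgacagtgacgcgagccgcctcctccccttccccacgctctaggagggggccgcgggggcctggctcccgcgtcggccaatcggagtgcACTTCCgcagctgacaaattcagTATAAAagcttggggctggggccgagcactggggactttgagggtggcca
Maff, chr15:79347270-79347569, plus strand: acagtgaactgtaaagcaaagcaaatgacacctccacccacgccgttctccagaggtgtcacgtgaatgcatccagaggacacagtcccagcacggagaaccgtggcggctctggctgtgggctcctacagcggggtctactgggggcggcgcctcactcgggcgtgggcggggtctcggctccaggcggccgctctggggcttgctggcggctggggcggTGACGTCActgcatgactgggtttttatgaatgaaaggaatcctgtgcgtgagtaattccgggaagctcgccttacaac
Jun, chr4:95052173-95052472, minus strand: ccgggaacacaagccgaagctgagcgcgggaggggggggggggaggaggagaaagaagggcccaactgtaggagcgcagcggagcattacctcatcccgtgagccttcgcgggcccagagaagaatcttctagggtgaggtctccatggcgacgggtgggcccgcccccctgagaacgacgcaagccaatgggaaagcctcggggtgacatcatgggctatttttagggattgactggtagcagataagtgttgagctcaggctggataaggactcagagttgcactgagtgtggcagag

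In the Fos window the capitals mark an ETS core, whose first base lies at -59 from the start site, and a TATA box at -33. In the Junb window they mark an ETS core on the opposite strand at -23 and TATAAA letters at 1, the RefSeq start itself. The GENCODE gene model of Junb starts downstream of that, at 84978718. The Maff window shown, at 1 of its 3 annotated start sites, holds a CRE at -29. A second Maff window (chr15:79348152-79348451) held an ETS core at -184. The windows of Fosb, Fosl2, Jun, Jund and Atf3 held none of the 5 motifs (that of Jund belongs to a start site upstream of the GENCODE gene model), and no member's window held a TRE or a CArG box. Among 32851 windows of the same length genome-wide, 7.81% held the TRE, 1.79% the CRE, 1.63% the CArG box, 23.8% the ETS core and 13.6% the TATA letters. Only exact letters were counted. A near-match, such as tgacatca in the Jun window, was not, nor was any site outside the windows. A window without a match can therefore still belong to a gene with such a site. The matches describe the letters in these windows and nothing about binding.

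All 9 AP-1 genes differed between FGF6 and vehicle at each time, and they split in the same way at 4, 8 and 24 h. Fos, Fosb, Fosl1, Jun, Junb and Maff were higher with FGF6, and Fosl2, Jund and Atf3 were lower. Calls were common in these cells. At 4 h 28.6% of the genes tested were called higher and 34.2% lower, at 8 h 32.4% and 38.4%, and at 24 h 35.9% and 37.9%, beside 6 higher and 3 lower of the 9 AP-1 genes each time. With a change of at least 2-fold also required, 3 AP-1 genes were higher and 0 lower at 4 h (4.96% and 6.38% of all genes), 4 higher and 1 lower at 8 h (7.39% and 10.9%), and 5 higher and 0 lower at 24 h (7.44% and 15.3%). DESeq2, limma voom and edgeR at an unadjusted p under 0.05 likewise put 0 of them at least 2-fold lower at 4 and 24 h. The median log2 fold change of the 9 genes was 0.97, 0.98 and 1.08 at 4, 8 and 24 h, against -0.05, -0.05 and -0.02 over all genes. The 3 comparisons use separate libraries. Without the deviating vehicle library, the 24 h calls were again 6 higher and 3 lower. Without vehicle replicate 1 of that time, or with an offset for GC content, Fosl2 and Jund kept their direction at 24 h but were not called.

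**Figure D1:**
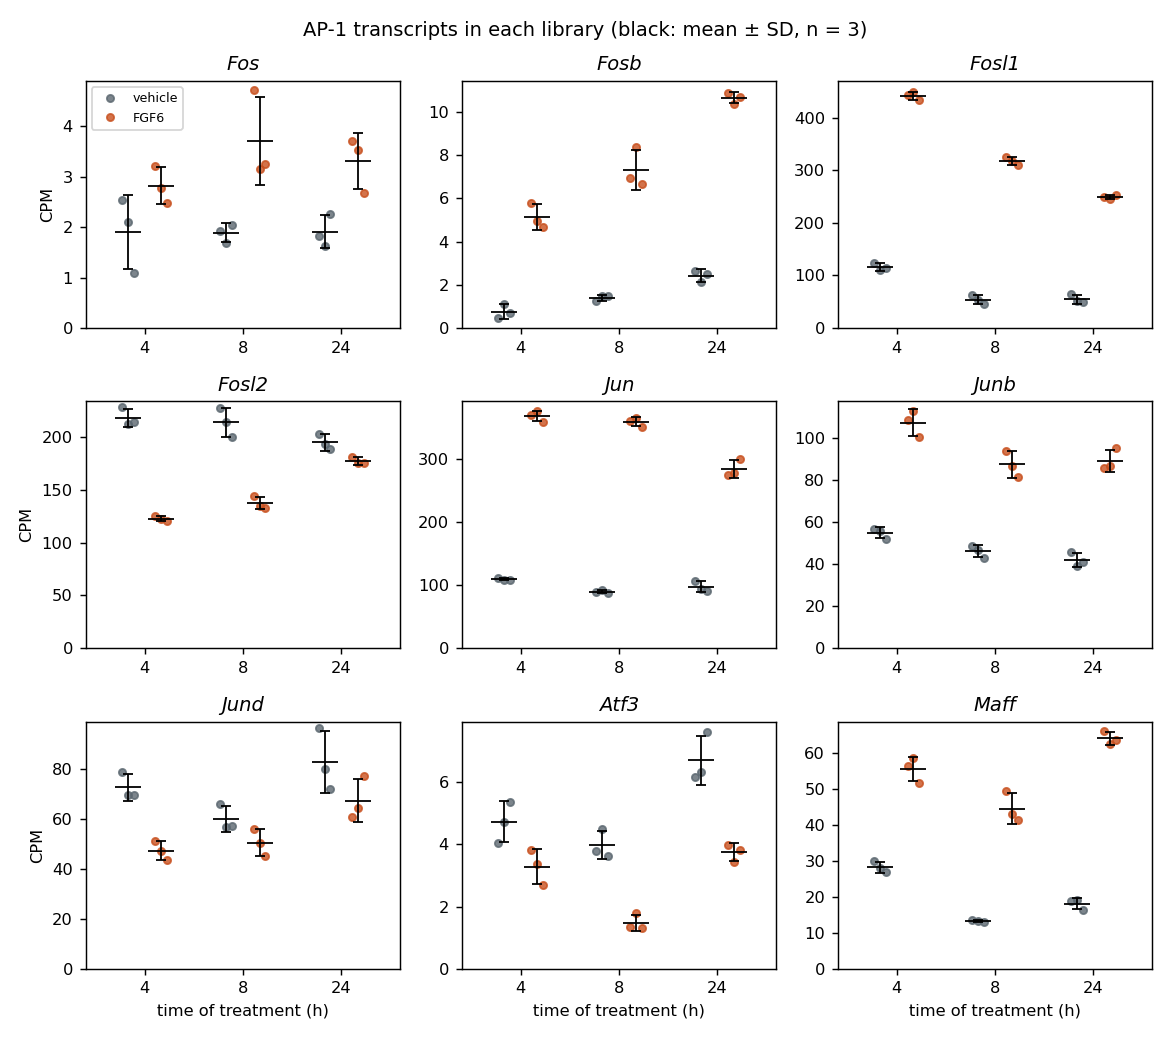
Expression of the 9 AP-1 genes in each of the 18 libraries (y axes, CPM from 0; x axes, hours of treatment, evenly spaced; grey points, vehicle; orange points, FGF6; black, mean ± SD of 3 libraries). The groups overlap for Fos at 4 h and for Jund at 24 h and are separate elsewhere.

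Fosl1 rose several-fold at each time. It encodes FRA1, which lacks a transactivation domain of its own and accumulates under sustained ERK signaling, and it lies on chromosome 19 at 5447547 to 5455946 (plus strand). At 4 h the vehicle libraries measured 124, 111 and 113 CPM and the FGF6 libraries 442, 449 and 434 CPM. At 8 h the values were 62.9, 52.3 and 45.5 CPM against 325, 317 and 309.7 CPM, and at 24 h 64.2, 50.3 and 49.4 CPM against 249, 245 and 253 CPM. The groups were far apart at all 3 times, and the highest Fosl1 values in both arms were those at 4 h. The rise was 3.81-fold at 4 h (log2 fold change 1.93, SE 0.08, adjusted p = 6.72e-17 in edgeR), 5.92-fold at 8 h (2.57, SE 0.08, adjusted p = 3e-19) and 4.55-fold at 24 h (2.19, SE 0.08, adjusted p = 4.83e-18). Of the 2033 exonic bases of Fosl1, 1163 are shared with Ccdc85b on the opposite strand, and the strand setting of the counting is not given in the sources used here. Ccdc85b itself did not follow Fosl1, with log2 fold changes of -0.21, 0.09 and -0.91 at 4, 8 and 24 h.

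Fosb (chromosome 7, 19302696 to 19310051, minus strand) had the largest fold of the 9 genes at 4 h but a low level. It encodes FOSB and, by splicing, the shorter and more stable ΔFOSB, which the gene counts do not separate. Its 4 h values were 0.454, 1.11 and 0.701 CPM with vehicle and 5.81, 4.97 and 4.67 CPM with FGF6. They were 1.23, 1.49 and 1.47 CPM against 6.93, 8.37 and 6.66 CPM at 8 h, and 2.66, 2.11 and 2.52 CPM against 10.9, 10.4 and 10.7 CPM at 24 h. The level went up from each time to the next in both arms, and no vehicle library reached an FGF6 library. The folds were 6.74 (log2 2.75, SE 0.19, adjusted p = 4.17e-12 in edgeR), 5.24 (log2 2.39, SE 0.16) and 4.41 (log2 2.14, SE 0.15). These values rest on 14 to 299 counts per library.

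Fos, the prototype immediate-early gene (chromosome 12, 85473890 to 85477273, plus strand), had the smallest fold of the 6 genes that rose at 4 and 24 h, and at 8 h was next to Junb. At 4 h its values were 2.53, 2.1 and 1.1 CPM with vehicle and 3.22, 2.77 and 2.48 CPM with FGF6, and the groups overlapped. At 8 h they were 1.93, 1.68 and 2.05 CPM against 4.72, 3.16 and 3.25 CPM, and at 24 h 1.82, 1.63 and 2.27 CPM against 3.72, 3.54 and 2.68 CPM. From 8 h on the groups separated, though by less than 1 CPM at 24 h, on 33 to 145 counts per library. The log2 fold changes were 0.56 (SE 0.23, adjusted p = 0.0358 in edgeR), 0.98 (SE 0.22, adjusted p = 0.000315) and 0.81 (SE 0.23, adjusted p = 0.00245). The 4 h call was lost with library sizes alone (0.46, adjusted p = 0.084), with upper-quartile factors (0.50, adjusted p = 0.0597), and without vehicle replicate 3 (0.29, adjusted p = 0.251), FGF6 replicate 1 (0.48, adjusted p = 0.115) or FGF6 replicate 2 (0.60, adjusted p = 0.0546). Fos is known to peak within minutes of a stimulus, before the earliest time sampled here.

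Fosl2 went the other way. It encodes FRA2, like FRA1 a FOS protein without a strong transactivation domain, and lies on chromosome 5 at 32135801 to 32157842 (plus strand). Its vehicle libraries measured 228, 212 and 214 CPM at 4 h and its FGF6 libraries 125, 122 and 120.2 CPM. At 8 h the values were 227, 214 and 200.1 CPM against 144, 135 and 133 CPM, and at 24 h 203, 193 and 188 CPM against 181, 175 and 175 CPM. The gap was wide at 4 h and nearly closed at 24 h, although the groups did not overlap. The log2 fold change was -0.83 at 4 h (SE 0.04, adjusted p = 9.68e-15 in edgeR), -0.64 at 8 h (SE 0.04, adjusted p = 1.06e-12) and -0.14 at 24 h (SE 0.04, adjusted p = 0.00615). The 24 h call was lost with an offset for GC content (-0.04, adjusted p = 0.386) and without vehicle replicate 1 (-0.06, adjusted p = 0.231), vehicle replicate 2 (-0.10, adjusted p = 0.0759) or FGF6 replicate 3 (-0.09, adjusted p = 0.127). It stayed without the deviating vehicle replicate 3 (-0.12, adjusted p = 0.0259).

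Jun rose more than Junb at each time. It encodes c-JUN, the partner that most AP-1 dimers share, from a single exon on chromosome 4 at 95049034 to 95052222 (minus strand). Vehicle libraries measured 112, 109 and 108 CPM at 4 h and FGF6 libraries 369, 376 and 359 CPM. At 8 h they measured 89.4, 92.5 and 87.5 CPM against 360.2, 365 and 351 CPM, and at 24 h 107, 94.8 and 90.2 CPM against 275, 277 and 299.6 CPM. Every FGF6 library was thus well above every vehicle library, with a lower FGF6 level at 24 h than at 8 h. The log2 fold changes were 1.75 (SE 0.05, adjusted p = 8.51e-21 in edgeR), 2.00 (SE 0.05, adjusted p = 3.4e-22) and 1.55 (SE 0.05, adjusted p = 3.29e-20). Jun shares 232 of its 3189 exonic bases with the antisense gene Junos, which also had positive log2 fold changes (0.71, 2.19 and 2.55) at a far lower level (3.26 to 26.2 CPM as group means).

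Junb (chromosome 8, 84974484 to 84978718, minus strand), whose product can either drive transcription or hold c-JUN in check, rose by close to 2-fold at every time. Its 4 h values were 57, 56 and 52 CPM with vehicle and 109, 113 and 100.5 CPM with FGF6. They were 48.9, 46.9 and 43.2 CPM against 94.2, 86.8 and 81.8 CPM at 8 h, and 45.9, 39.4 and 41.3 CPM against 86, 86.7 and 95.4 CPM at 24 h. The log2 fold changes were 0.97, 0.92 and 1.08 (SE 0.06 each time), with adjusted p = 4.34e-13, 1.06e-12 and 3.93e-14 in edgeR. The groups never overlapped. Prdx2, which shares 173 of the 2301 exonic bases of Junb on the other strand, had log2 fold changes of -0.02, 0.11 and 0.59.

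Jund (chromosome 8, 70698949 to 70700616, plus strand), whose product is present in resting cells and is often described as antiproliferative, was lower with FGF6. At 4 h it measured 79, 69.8 and 69.7 CPM with vehicle and 51.1, 47.3 and 43.6 CPM with FGF6, with no overlap. At 8 h the values were 66.2, 57 and 57.3 CPM against 56, 50.5 and 45.3 CPM, and at 24 h 96.4, 80 and 72.1 CPM against 60.8, 64.3 and 77.2 CPM. The groups touched closely at 8 h and overlapped at 24 h. The log2 fold change of -0.62 at 4 h (SE 0.10, adjusted p = 3.44e-06 in edgeR) stayed called under each other normalization, test, filter and fit and with any 1 library left out, between -0.72 and -0.45. At 1.54-fold it does not pass a 2-fold minimum. That of -0.25 at 8 h (adjusted p = 0.0242) was lost with DESeq2 (-0.21, adjusted p = 0.127) and without vehicle replicate 1 (-0.17, adjusted p = 0.142), FGF6 replicate 2 (-0.24, adjusted p = 0.0557) or FGF6 replicate 3 (-0.13, adjusted p = 0.268). That of -0.30 at 24 h (adjusted p = 0.00556) was lost with the GC offset (-0.09, adjusted p = 0.201), without vehicle replicate 1 (-0.13, adjusted p = 0.192) and without FGF6 replicate 1 (-0.19, adjusted p = 0.106). Without the deviating vehicle replicate 3 it was -0.35 (adjusted p = 0.00176). At 67.1% GC, Jund stood at the 99.8th percentile of the genes tested. It shares 877 of its 1668 exonic bases with the antisense gene Gm11175, which had no count in any library.

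**Figure D2:**
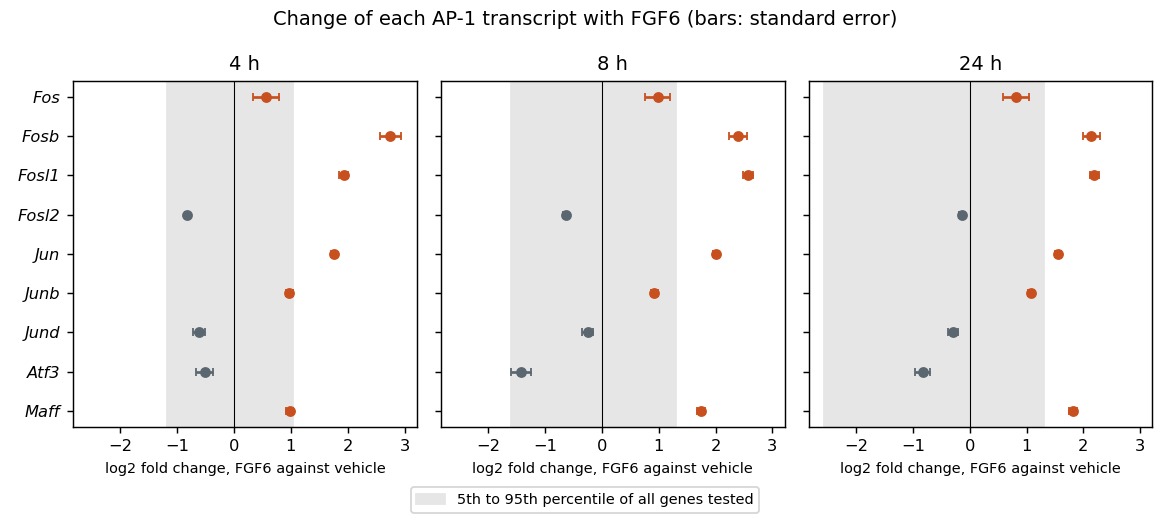
Log2 fold change of FGF6 against vehicle (x axes) for each AP-1 gene (y axis) at 4, 8 and 24 h, with standard errors from edgeR; orange, higher and grey, lower with FGF6; shaded, the span that holds the middle 90% of all genes tested. Fosb, Fosl1 and Jun lie above the shaded span at all 3 times and Maff at 8 and 24 h.

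Atf3 (chromosome 1, 191170296 to 191218039, minus strand), a stress-responsive gene whose product represses many promoters as a homodimer, was low and fell with FGF6. It measured 4.05, 4.73 and 5.37 CPM with vehicle and 3.81, 3.35 and 2.68 CPM with FGF6 at 4 h. At 8 h the values were 3.79, 4.48 and 3.63 CPM against 1.33, 1.78 and 1.31 CPM, and at 24 h 6.17, 6.33 and 7.61 CPM against 3.98, 3.43 and 3.82 CPM. The groups were separate each time and furthest apart in relative terms at 8 h, on 32 to 210 counts per library. The log2 fold changes were -0.52 (SE 0.15, adjusted p = 0.00391 in edgeR), -1.42 (SE 0.17, adjusted p = 7.49e-08, or 2.67-fold lower) and -0.83 (SE 0.14, adjusted p = 9.98e-06).

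Genes of the pathways that are known to raise Atf3 moved unevenly. The counts of called genes in these and the following lists stand beside 28.6%, 32.4% and 35.9% of all genes called higher and 34.2%, 38.4% and 37.9% called lower at 4, 8 and 24 h. Of 7 genes of the integrated stress response, 1 was called higher and 4 lower at 4 h and again at 8 h, and 3 higher and 2 lower at 24 h (medians -0.51, -0.40 and 0.13), or 14.3% and 57.1% at the first 2 times. Sesn2, which encodes the stress-induced sestrin 2, was the largest fall at 4 h (-0.73). Ddit3, which encodes the stress factor CHOP, was at 36.4 ± 2.19 CPM with FGF6 and 88.6 ± 0.707 CPM with vehicle at 24 h (SD, n = 3; log2 fold change -1.29), and Ddit4, a stress-induced inhibitor of mTOR, was lower at 4 h (-0.72) and 8 h (-1.38) and higher at 24 h (0.29, adjusted p = 7.24e-05 in edgeR). Atf4, the master factor of the response, was higher at 8 h (0.22) and 24 h (0.18), and the asparagine synthetase gene Asns at 4 h (0.12) and 24 h (0.52). Of 5 heat shock genes, 1 rose and 3 fell at 4 and 8 h, and 2 rose and 3 fell at 24 h. Hspa1a, the inducible HSP70, had log2 fold changes of -2.24, -1.40 and -1.05, whereas the chaperone gene Hsph1 had 0.25, 0.69 and 1.06.

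Maff (chromosome 15, 79346621 to 79359076, plus strand), a small MAF factor that lacks a transactivation domain and pairs with CNC and some FOS proteins, rose at each time. Its 4 h values were 29.9, 27.9 and 26.8 CPM with vehicle and 56.2, 58.4 and 51.7 CPM with FGF6. At 8 h they were 13.5, 13.3 and 12.9 CPM against 49.3, 43 and 41.2 CPM, and at 24 h 18.7, 19.1 and 16.3 CPM against 65.9, 62.5 and 63.5 CPM. The groups were separate throughout, and the vehicle level was lowest at 8 h. The log2 fold changes were 0.98 (SE 0.06, adjusted p = 6.48e-13 in edgeR), 1.75 (SE 0.07, adjusted p = 2.58e-17) and 1.82 (SE 0.07, adjusted p = 2.3e-18).

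The size of the FGF6 effect changed with time for several members. Between 4 and 8 h the effect differed for 6 of the 9 genes by the test of the difference itself (30.6% of all genes were called in either direction). The log2 fold change became more positive for Maff by 0.77 (adjusted p = 7.78e-07 in edgeR), Fosl1 by 0.64 (adjusted p = 8.36e-05), Jun by 0.25 (adjusted p = 0.00368), Jund by 0.37 (adjusted p = 0.0379) and Fosl2 by 0.20 (adjusted p = 0.0158), and more negative for Atf3 (-0.90, adjusted p = 0.00418). For Fos, Fosb and Junb the differences of 0.42, -0.36 and -0.05 had 95% intervals of -0.23 to 1.08, -0.93 to 0.21 and -0.23 to 0.13. Between 8 and 24 h the effect differed for 4 of the 9 genes (45.1% of all genes). It was smaller at 24 h for Jun (-0.45, adjusted p = 2.13e-06) and Fosl1 (-0.38, adjusted p = 0.00792), and less negative for Fosl2 (0.50, adjusted p = 2.04e-07) and Atf3 (0.58, adjusted p = 0.0397). Without vehicle replicate 3 of the 24 h group these differences were -0.50, -0.44, 0.48 and 0.68, all still called. The tests of 4 to 8 h and of 8 to 24 h share the 8 h libraries. For Maff, whose effect was near equal at 8 and 24 h, the difference of 0.07 had a 95% interval of -0.13 to 0.28.

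Some of these differences were sensitive. The 4 to 8 h difference of Jund was not called with the GC offset (0.07, adjusted p = 0.574), with DESeq2 (0.39, adjusted p = 0.0874), or without any 1 of 7 single libraries of those groups. That of Fosl2 was not called without vehicle replicate 1 of 4 h, vehicle replicate 3 of 8 h or FGF6 replicate 1 of 8 h (0.16, 0.15 and 0.16). The 8 to 24 h difference of Atf3 was not called with limma voom (0.60, adjusted p = 0.0513), DESeq2 (0.57, adjusted p = 0.0512) or no filter (0.57, adjusted p = 0.0566), nor without any 1 of 7 single libraries (0.48 to 0.57). Conversely, with the GC offset in edgeR Junb was called from 4 to 8 h (-0.19, adjusted p = 0.0236) and from 8 to 24 h (0.38, adjusted p = 3.71e-05). The latter was also called with library sizes alone (0.22, adjusted p = 0.0486) and without vehicle replicate 1 of 24 h (0.23, adjusted p = 0.041).

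Vehicle-treated cells were not constant over time. In vehicle from 4 to 8 h, 6 of the 9 genes differed (43.0% of all genes did). Fosl1 fell 2.16-fold (log2 -1.11, adjusted p = 4.14e-11 in edgeR) and Maff 2.13-fold (-1.09, adjusted p = 6.64e-12), Jun, Jund and Junb fell less (-0.29, -0.28 and -0.25), and Fosb was higher (0.87). With FGF6 over the same hours 6 of the 9 differed (48.2% of all genes), with Fosl1 at -0.48, Maff at -0.32, Junb at -0.30 and Atf3 at -1.15, and with Fosb at 0.51 and Fosl2 at 0.17. The larger effects on Fosl1 and Maff at 8 h than at 4 h thus went with lower levels in both arms and a steeper drop in vehicle.

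From 8 to 24 h, 6 of the 9 genes differed in vehicle (49.2% of all genes) and 7 of the 9 with FGF6 (62.3%). In vehicle, Fosb (0.79), Atf3 (0.75), Jund (0.46), Maff (0.45) and Jun (0.11) were higher at 24 h and Fosl2 (-0.14) was lower. With FGF6, Atf3 (1.33), Fosb (0.54), Maff (0.52), Jund (0.41) and Fosl2 (0.36) were higher and Fosl1 (-0.35) and Jun (-0.34) were lower. The closing gap of Fosl2 at 24 h therefore combined a higher level with FGF6 and a slightly lower level with vehicle. Without vehicle replicate 3 of 24 h, Fosl2 was no longer called in vehicle (-0.11, adjusted p = 0.0557). The vehicle rise of Jun was lost under 6 of the processing alternatives, and with the GC offset the 4 to 8 h fall of Junb in vehicle was not called (-0.05, adjusted p = 0.395) and that of Jund had the opposite sign (0.05, adjusted p = 0.524). The fall of Jund was also not called with DESeq2 (-0.29, adjusted p = 0.0544) or without vehicle replicate 1 of 4 h or vehicle replicate 2 or 3 of 8 h.

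To set the genes side by side, CPM was divided by exonic length. At 4 h in vehicle the order by mean CPM per kb was Fosl1 (57.1), Jund (43.7), Jun (34.3), Junb (23.9), Fosl2 (22.5), Maff (10.9), Atf3 (2.19), Fos (0.812) and Fosb (0.121), with Junb and Fosl2 overlapping. At 4 h with FGF6 it was Fosl1 (217), Jun (115), Junb (46.7), Jund (28.4), Maff (21.4), Fosl2 (12.7), Atf3 (1.52), Fos (1.2) and Fosb (0.825), with Atf3 and Fos overlapping. Jund led in vehicle at 8 h (36.1) and 24 h (49.7), and Fosl1 led with FGF6 at both times (156 and 122). In vehicle at 8 h Jun, Fosl1, Fosl2 and Junb formed a run in which each overlapped the next, between 28.2 and 20.1 CPM per kb. Fos, Fosb and Atf3 held the last 3 places in all 6 groups, with group means from 0.121 to 3.11 CPM per kb.

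The make-up of both families shifted. The summed FOS-family level was 80.5 ± 4.66 CPM per kb with vehicle and 232 ± 3.81 with FGF6 at 4 h, 49.5 ± 5.65 and 173 ± 4.72 at 8 h, and 48.2 ± 4.83 and 144 ± 1.82 at 24 h (SD, n = 3). Fosl1 made up 70.8% ± 0.416 of it with vehicle and 93.7% ± 0.201 with FGF6 at 4 h, 53.1% ± 2.59 and 90.2% ± 0.293 at 8 h, and 55.6% ± 2.77 and 85.1% ± 0.44 at 24 h. Fosl2 made up nearly all of the rest, 28%, 44.8% and 41.9% with vehicle and 5.46%, 8.2% and 12.7% with FGF6. Fos stayed at or below 1.7% and Fosb at or below 1.19% as group means. Each of these shares separated the 3 vehicle from the 3 FGF6 libraries, and the exact two-sided permutation test then gives p = 0.1, the smallest that 3 against 3 allows (adjusted p = 0.105 over the 21 shares). The shares depend on the length used, and so does the order of Fosl1 and Fosl2 in vehicle. With the longest transcript, Fosl1 made up 45.6% and Fosl2 52.3% with vehicle at 8 h, and 48.2% and 49.2% at 24 h. At 4 h the gain of Fosl1 was 22.8 percentage points over exonic length and 42.8 with no length at all. It was 12.2 when bases shared with another gene were left out of the length, though their reads stayed in the counts.

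In the JUN family the summed level was 102 ± 4.72 CPM per kb with vehicle and 190.4 ± 7.19 with FGF6 at 4 h, 84.4 ± 4.26 and 181 ± 7.45 at 8 h, and 98.5 ± 11.3 and 168 ± 11.7 at 24 h. Jun went from 33.7% ± 0.864 to 60.6% ± 1.01 at 4 h, from 33.4% ± 1.69 to 62.2% ± 1.78 at 8 h and from 31% ± 0.83 to 52.9% ± 1.12 at 24 h. Jund went from 42.8% to 14.9%, from 42.7% to 16.7% and from 50.3% to 24%, again without overlap and with exact p = 0.1. The share of Junb moved by less, from 23.5% to 24.5% at 4 h (exact permutation p = 0.2), from 23.9% to 21% at 8 h and from 18.7% to 23.1% at 24 h (exact permutation p = 0.1 both times, without overlap), and the sign of its difference at 4 and 8 h depended on the length used.

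**Figure D3:**
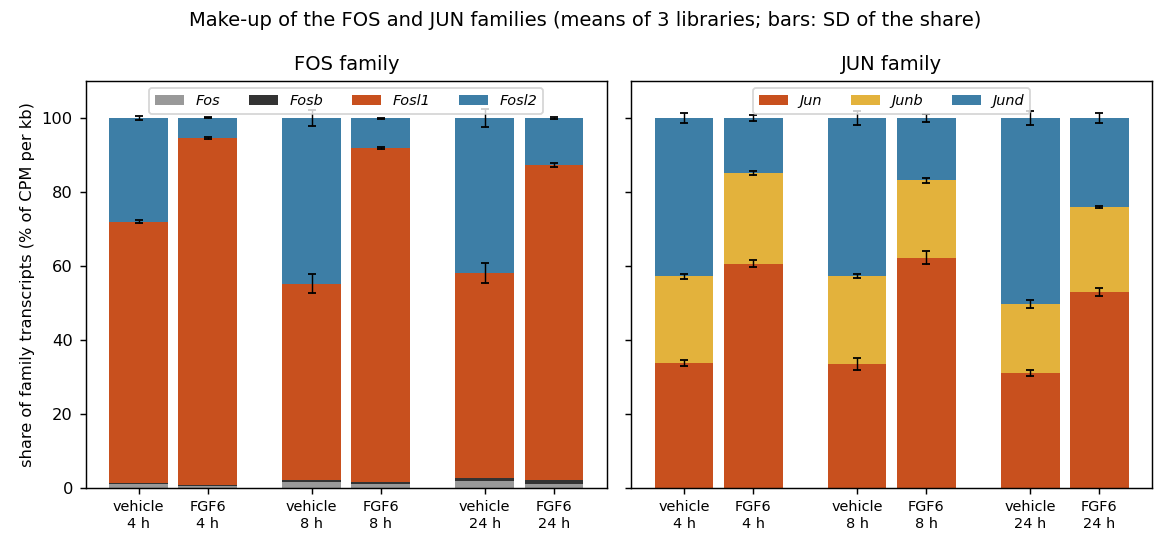
Share of each gene in the summed CPM per kb of the FOS family (left) and the JUN family (right), as stacked means of 3 libraries with the SD of each share drawn at the top of its segment (segments under 4% without one). Over exonic length, Fosl1 takes 53.1% to 70.8% of the FOS family with vehicle and 85.1% to 93.7% with FGF6. Jun overtakes Jund in the JUN family at each time over the same length.

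Over the 18 libraries the log2 CPM values of Fosl1, Jun, Junb and Maff ran close together, with Pearson correlations between 0.91 and 0.98, and Fosl2 ran opposite to Fosl1 (-0.83) and Jun (-0.88). These points share libraries and the same 6 groups, and the coefficients are descriptions only. Among 12290 other genes, the patterns most like Fosl1 were those of Ier2, an immediate-early gene (r = 0.997), Enc1 (0.994) and Slc25a37, which encodes the mitochondrial iron importer mitoferrin 1 (0.993). For Junb they were Ncs1 (0.992), Slc41a1 (0.990) and Rnf44 (0.985). For Jund the nearest were Vegfb, a growth factor of the VEGF family (0.937), Agpat3 (0.923) and Tmem151a (0.905), and for Atf3 Camk1 (0.952), Hsd17b11 (0.947) and Ftl1, the ferritin light chain (0.946).

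Among 24 other bZIP genes tested that can pair with AP-1 proteins or share their sites, the share called higher was close to that of all genes at each time and the share called lower was above it at 8 and 24 h. At 4 h 8 were called higher and 9 lower, at 8 h 7 and 13, and at 24 h 9 and 12, or 33.3% and 37.5%, 29.2% and 54.2%, and 37.5% and 50% of the list, with medians of -0.07, -0.19 and -0.23. The largest fall at each time was that of Maf, a large MAF factor, which went from 34 ± 1.81 to 4.07 ± 0.315 CPM at 4 h, from 29 ± 1.05 to 1.17 ± 0.161 at 8 h and from 47.3 ± 1.63 to 0.448 ± 0.148 at 24 h (log2 fold changes -3.06, -4.62 and -6.71, adjusted p = 3.8e-25 in edgeR at 24 h). Among genes averaging at least 1 CPM over both groups, Mafk, a small MAF like Maff, rose most at 4 h (1.15), Creb5 at 8 h (1.88) and the CREB-family gene Crem at 24 h (1.58). Mafk was also called higher at 8 h (0.87) but lower at 24 h (-0.17), and Crem was called lower at both 4 and 8 h (-0.32 each). Batf2, below that mean, went from 0.587 ± 0.319 to 1.32 ± 0.347 CPM at 4 h (1.17, adjusted p = 0.00574 in edgeR). It was not called at 8 h (-0.49) and was lower at 24 h, from 0.389 to 0.0122 CPM (-4.57, adjusted p = 0.000109 in edgeR).

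Of 21 kinase and SRF-cofactor genes upstream of AP-1, 13 were called higher and 4 lower at 4 h, 11 and 3 at 8 h, and 17 and 4 at 24 h (medians 0.17, 0.15 and 0.27), the share called higher being 61.9%, 52.4% and 81%. Map2k3, a kinase that activates p38, had log2 fold changes of 1.10, 1.33 and 0.35, and Map2k6, which has the same substrate, of 1.06, 1.33 and 2.13. Mapk3, which encodes ERK1, was lower each time (-0.31, -0.08 and -0.35), and Mapk9, which encodes JNK2, was lower at 8 h (-0.21) and higher at 24 h (0.17). Transcript levels do not report the activity of these kinases.

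Of 9 genes that act on AP-1 mRNA or protein turnover, 4 were higher and 1 lower at 4 h, 5 and 1 at 8 h, and 5 and 2 at 24 h, with medians of 0.15, 0.17 and 0.10. Zfp36l1, which binds AU-rich elements and speeds mRNA decay, fell at each time (-1.24, -1.98 and -2.56), from 101 ± 2.21 to 17.2 ± 0.545 CPM at 24 h. Its relative Zfp36l2 rose each time (1.31, 0.87 and 0.25), at 4 h from 314 ± 10.3 to 780.2 ± 43.7 CPM. Trib1, a pseudokinase that brings substrates to the ubiquitin ligase COP1, rose each time (1.06, 0.99 and 1.65).

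Genes that textbooks list as AP-1 targets were mostly higher with FGF6. The list was chosen with earlier results of these data known, so its counts are a description only. Of 15 tested, 12 were called higher and 0 lower at 4 h, 13 and 1 at 8 h, and 12 and 2 at 24 h, with median log2 fold changes of 1.58, 1.76 and 2.44. At 4 h 0 were lower also in DESeq2, in limma voom and at an unadjusted p under 0.05 in edgeR, and 1 was with library sizes alone. With genes that had no count in vehicle set to their lower bound, the medians were 1.43, 1.71 and 2.17. Mmp13, a collagenase with a well-known TRE, went from 1.22 ± 0.197 to 6.68 ± 0.524 CPM at 4 h (log2 fold change 2.46). Ccnd1, which encodes cyclin D1, went from 44 ± 4.48 to 398 ± 4.7 CPM at 8 h (3.18), and the stromelysin gene Mmp3 from 0.19 ± 0.082 to 11.1 ± 1.94 CPM at 24 h (5.86). The genes that fell were Il6 at 8 h (-0.45, adjusted p = 0.0036 in edgeR) and, at 24 h, the chemokine gene Ccl2 (-1.12, adjusted p = 1.1e-17) and Mmp9 (-3.16, adjusted p = 0.000176), the last at under 1 CPM in every group and named after its values were seen. Ccl2 had been higher with FGF6 at 4 h (1.12) and 8 h (0.82). These genes respond to other factors as well as to AP-1, and no binding was measured.

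**Figure D4:**
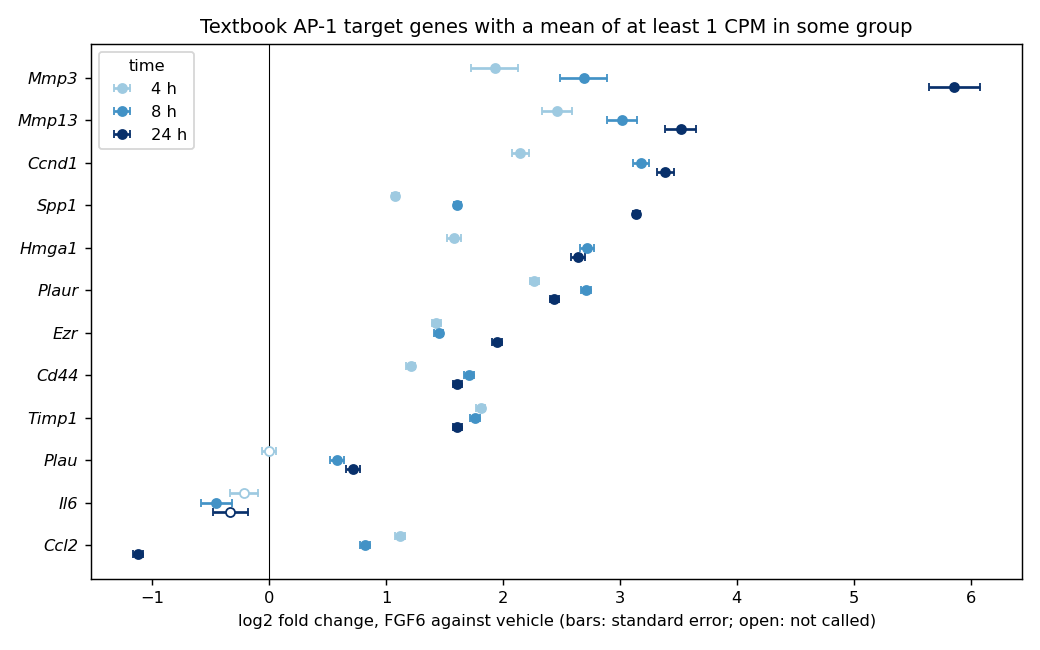
Log2 fold change of FGF6 against vehicle (x axis, with standard errors) at 4, 8 and 24 h (light to dark blue) for the 12 of 15 textbook AP-1 targets with a mean of at least 1 CPM in some group. Filled points were called and open points were not; 9 of the 12 were called higher at all 3 times, and Ccl2 crosses from 1.12 at 4 h to -1.12 at 24 h.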

How the data were processed

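RNA of mouse brown preadipocytes was sequenced in 18 libraries. Reads were aligned by the authors to GRCm38 with STAR and assigned to genes with Subread featureCounts, and the deposited values are raw counts per gene, without normalization. Tool versions, annotation release, strand setting and the handling of multi-mapping reads are not given in the sources used here, so counts of overlapping genes are uncertain.

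Groups came from the labels. From the counts, genes were kept with filterByExpr (15071 of 48023; 19409 had no count), TMM factors were computed, and 6 group means were fitted over all libraries with edgeR 4.0.16 in R 4.3.3 (quasi-likelihood, Benjamini-Hochberg, call under 0.05). Standard errors are those implied by the F statistic, and 95% intervals use its t quantile. The filter, factors and libraries in the fit could change the numbers. Totals of 24327816 to 33471980 counts put the floor of 3 counts at 0.0905 to 0.126 CPM, which covers counting error only. Family shares were compared with exact permutation tests. Gene positions and lengths came from GENCODE M21 (98.5% of identifiers), promoter windows from RefSeq.

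The members and lists were chosen with earlier results of these data known. Of each list, the largest rise and fall among called genes without overlap and with a mean of at least 1 CPM over both groups were named, and for Fosl1, Junb, Jund and Atf3 (the largest fall) the 3 best-correlated genes. As alternatives, voom in limma 3.58.1 and DESeq2 1.42.0 replaced the test; unscaled library sizes and upper-quartile factors replaced TMM; the low-count filter was dropped or set to 10 counts in all libraries; the fit was limited to the times compared; replicate numbers entered as a block; an FDR of 0.25, a minimum of 2-fold and other gene lengths were used; and each library was left out. A GC offset and unshared exonic length were added after seeing the data. The fit was tested on simulated data.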

Additional observations from a re-analysis of the deposited data

Results flagged for a closer look

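The FGF6 effect differed between time points, by the test of the difference itself, in 10 instances among the AP-1 genes. Of all genes tested, 30.6% differed in this way from 4 to 8 h and 45.1% from 8 to 24 h. From 4 to 8 h the log2 effect moved by 0.64 for Fosl1, 0.20 for Fosl2, 0.25 for Jun, 0.37 for Jund, -0.90 for Atf3 and 0.77 for Maff. From 8 to 24 h it moved by -0.38 for Fosl1, 0.50 for Fosl2, -0.45 for Jun and 0.58 for Atf3. The 4 to 8 h differences of Jund and Fosl2 and the 8 to 24 h difference of Atf3 were not called under some alternatives. Fosl1 and Jun thus had their largest effect at 8 h among the 3 times, and Atf3 its most negative one. Maff fell 2.13-fold in vehicle between 4 and 8 h and by 0.32 on the log2 scale with FGF6.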

How the results depend on the processing

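All 27 differences between FGF6 and vehicle kept their direction under 9 processing alternatives each (243 in all, 238 on the same side of the threshold) and with each library left out (162 in all, 151 on the same side). Requiring at least 2-fold left 3 higher and 0 lower AP-1 genes at 4 h, 1 lower at 8 h and 0 lower at 24 h. At 24 h the GC offset left 1 gene called lower, and leaving out 1 library left between 1 and 3. Of effects over time and differences between times, 368 of 387 processing alternatives and 334 of 366 omissions kept direction and side. The 24 minus 8 h difference of Jund changed sign with library sizes alone (0.00) and the GC offset (0.30, then called, adjusted p = 0.00648), and the 8 against 4 h change of Jund in vehicle with the GC offset (0.05). With a library left out, uncalled differences straddled 0: Junb 8 minus 4 h from -0.10 to 0.02, Fos 24 minus 8 h from -0.28 to 0.05 and Jund 24 minus 8 h from -0.16 to 0.07.

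Family shares moved with the length used. The gain of Fosl1, in percentage points, was 42.8, 48.4 and 35.1 at 4, 8 and 24 h with no length, 27.4, 41.7 and 32.7 with the longest transcript and 12.2, 23 and 18.5 with unshared exonic length. That of Jun was 24.2, 26.4 and 20.7 with no length, 25.1 (4 h) and 20.3 (24 h) with the longest transcript and 29.1 (4 h) with unshared length. With no length, the difference of Fos at 8 h became 0.0912 and that of Junb at 4 h -2.62, and with unshared length that of Junb at 8 h became 1.18. Unscaled library sizes gave 2 turnover genes lower at 4 h and 3 higher at 8 h, 1 target gene lower at 4 h and 0 stress response genes higher at 4 h. An FDR of 0.25 gave 1 target gene lower and 2 heat shock genes higher at 4 h, and 2 stress response genes higher at 8 h.

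Unscaled library sizes shifted the median log2 fold change of all genes by -0.10 at 4 h. Same-numbered vehicle and FGF6 libraries of the same time did not deviate together over all genes (r from -0.03 to 0.05). Whether libraries of the same number deviate together across times was not tested. In vehicle the share of counts on the AP-1 genes was highest in replicate 1 at each time (0.0661%, 0.0539% and 0.0548%). With FGF6 replicate 3 was lowest at 4 and 8 h and highest at 24 h (0.107%, 0.0973% and 0.0964%). With the replicate number as a block, the AP-1 genes called were 6 higher and 3 lower at each time, and no AP-1 call changed. The causes of these shifts were not tested. Depth limits Fos, Fosb and Atf3, which rest on 14 to 299 counts per library.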
